A study of Rattus norvegicus with 9 samples.

Results

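The heat shock protein and DnaJ chaperone genes were taken from the table of all genes by their symbols: Hspa followed by a number, Hspb followed by a number, Hsph1, Hsp90, Hspd1, Hspe1, and Dnaja, Dnajb or Dnajc followed by a number, with a mean count over the 9 libraries of at least 10. Of the 32623 entries of the table, 71 had such a symbol and 64 reached the mean count. These 64 were put in families by symbol alone, not by protein structure. The Hsp70 and Hsp110 family holds 13, Hsp90 3, the chaperonin of mitochondria 2, and the small heat shock proteins (Hspb) 4. The Dnaja, Dnajb and Dnajc classes of DnaJ proteins hold 4, 12 and 26. The 7 that did not reach the mean count were Hspb2, Hspb3, Hspb7, Hspb9, Dnajb8, Dnajc5b and Dnajc5g, with mean counts from 0 to 5.56. The member nearest to the limit was Dnajb7 with a mean count of 24.4. All 64 members also passed the filter on low counts that was applied to the whole table, which left 16284 genes for the tests. Hspa1a was not analysed here.

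RNA was sequenced from primary cortical neurons of Wistar rat embryos (embryonic day 16 to 18, labelled wild type, WT) grown on conductive glass. The groups were unstimulated neurons (control), neurons under direct current (DCS, which the labels call DES) and neurons under alternating current (ACS), with 3 libraries each. By their labels, both currents had a strength of 3 µA and were applied daily for 20 min on 7 days, at 20 Hz, although the study's methods give that frequency for ACS. The cells are labelled as day 7 in vitro and the stated culture period ends at day 14. Whether libraries of 1 group are separate cultures is stated in neither source, so a p-value here sets a difference against the spread of these samples alone, and that spread may be technical.

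Chaperones hold unfolded proteins and help them fold. Hsp70 proteins bind and release short hydrophobic stretches in a cycle driven by ATP, DnaJ (Hsp40) proteins bring the client to Hsp70 and start its ATP hydrolysis, and Hsp110 proteins exchange the nucleotide that follows. Hsp90 proteins act later, on kinases, receptors and other clients that are close to their folded form, small heat shock proteins hold unfolded proteins without ATP, and the chaperonin encloses a client in a barrel. Each compartment has its own set. In neurons, DnaJ proteins also serve the synaptic vesicle cycle, as cysteine string protein (Dnajc5) on vesicles and auxilin (Dnajc6) in the removal of clathrin coats. Heat shock factors act through heat shock elements in the promoters of cytosolic and mitochondrial chaperone genes, whereas chaperones of the endoplasmic reticulum (ER) answer to the unfolded protein response through ER stress elements.

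The promoters of 4 members are printed with these elements, which other members also hold. They were chosen because Hspa5 and Dnaja1 carried the lower calls under ACS, Hspd1 came next to them by p-value, and Hsp90b1 holds the same kind of element as Hspa5. The windows are from RefSeq on the build GRCr8, from 250 bases before to 50 bases after the start of the gene, and are written 5′ to 3′. Capitals in the first pair mark the ER stress element, which is CCAAT, 9 bases of any kind, and CCACG on either strand, so each match also holds a CCAAT box. Capitals in the second pair mark a heat shock element of inverted units, GAANNTTC or TTCNNGAA, where N is any base and where matches that overlap run together.
Hspa5, chr3:38452766-38453065, plus strand: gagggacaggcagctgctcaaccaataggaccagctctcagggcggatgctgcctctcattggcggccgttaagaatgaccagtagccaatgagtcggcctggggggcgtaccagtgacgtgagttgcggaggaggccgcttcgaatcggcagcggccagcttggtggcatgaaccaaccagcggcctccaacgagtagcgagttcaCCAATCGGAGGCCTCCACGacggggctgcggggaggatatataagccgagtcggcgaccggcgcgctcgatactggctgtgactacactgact
Hsp90b1, chr7:23012244-23012543, minus strand: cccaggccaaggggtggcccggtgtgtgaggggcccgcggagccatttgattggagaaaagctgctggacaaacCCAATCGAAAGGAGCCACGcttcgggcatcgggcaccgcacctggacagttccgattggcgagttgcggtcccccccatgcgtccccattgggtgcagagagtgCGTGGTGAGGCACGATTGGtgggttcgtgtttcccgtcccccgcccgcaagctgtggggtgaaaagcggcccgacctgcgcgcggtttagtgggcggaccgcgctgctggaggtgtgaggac
Dnaja1, chr5:60638154-60638453, plus strand: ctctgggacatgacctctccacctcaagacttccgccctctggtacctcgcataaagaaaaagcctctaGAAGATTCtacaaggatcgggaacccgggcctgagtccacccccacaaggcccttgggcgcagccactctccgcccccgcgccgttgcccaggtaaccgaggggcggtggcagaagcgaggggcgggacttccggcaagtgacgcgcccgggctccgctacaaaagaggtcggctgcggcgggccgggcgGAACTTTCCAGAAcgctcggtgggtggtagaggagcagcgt
Hspd1, chr9:64083988-64084287, minus strand: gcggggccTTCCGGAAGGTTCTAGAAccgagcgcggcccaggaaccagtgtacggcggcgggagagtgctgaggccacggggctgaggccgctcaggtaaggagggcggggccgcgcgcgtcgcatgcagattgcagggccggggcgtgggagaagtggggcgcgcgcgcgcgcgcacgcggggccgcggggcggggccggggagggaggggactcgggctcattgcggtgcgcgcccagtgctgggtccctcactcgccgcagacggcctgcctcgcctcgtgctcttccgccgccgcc

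The ER stress element lay 43 to 25 bases before the start of Hspa5. Hsp90b1 had 2 such matches, which began 176 and 72 bases before its start. The window of Dnajc3, not printed, also held a match. Of all 33469 promoter windows, 0.0657% held one. Dnaja1 had a heat shock element that began 181 bases before the start and 2 that overlapped just after it. Hspd1 had 3 overlapping matches, the outermost of which began 242 bases before its start. A match to this shorter motif was common, with 15.9% of all windows. Dnaja1 and Hspd1 also matched a heat shock element of 3 alternating units, which 0.798% of all windows held. So did Hspa8, Hspe1 and Hsph1 among the members not printed. The Hspd1 window overlapped that of Hspe1, which is read in the other direction, by 211 bases. A window was matched by symbol for 51 of the 64 members (79.7%), under the 80% needed for a comparison over the set, so such a comparison is void and none was made. A match describes the letters only.

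The libraries held total counts of 53910745 to 68690760 in control, 52370330 to 68133858 in DCS and 49039412 to 52938628 in ACS, so ACS was sequenced least. The neuron markers Tubb3 (950 to 1210 FPKM, fragments per kilobase of exon scaled to the depth of the library) and Map2 (97.0 to 164 FPKM) were high in every library, and the astrocyte marker Gfap was also present at 49.6 to 64.3 FPKM. The summed level of 11 neuron markers was 2200 to 2300 FPKM in control, 2240 to 2400 in DCS and 2340 to 2440 in ACS, and 1 of the 11 was called higher in ACS than in control. For 7 markers of progenitors and dividing cells the sums were 150 to 154, 142 to 154 and 130 to 146 FPKM, and 2 of the 7 were called lower in ACS. The 8 astrocyte markers summed to 231 to 240, 225 to 228 and 181 to 261 FPKM and the 8 microglial markers to 48.5 to 49.3, 51.9 to 52.6 and 48.7 to 51.1 FPKM, and 1 of each was called higher in ACS. Endothelial and fibroblast markers were near 0. The part of cell composition and of depth in the differences below was not tested, and in such bulk samples fewer cells of a type and less RNA per cell cannot be told apart.

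Control library 3 stood apart from control libraries 1 and 2 in these genes. It was the lowest of the 3 controls for 40 of the 64 members (62.5%) and the highest for 7, against 37.7% and 38.9% of all genes tested. On the log2 scale, the median member lay 0.045 and 0.026 above the mean of the controls in control 1 and 2 and at -0.068 in control 3. It lay at -0.047, -0.055 and -0.025 in DCS 1, 2 and 3 and at -0.085, -0.107 and -0.109 in ACS. Control 3 was thus below all DCS libraries and above all ACS libraries by this measure. The calls against control that change without it are given below, with some but not all of the counts that change.

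**Figure D1:**
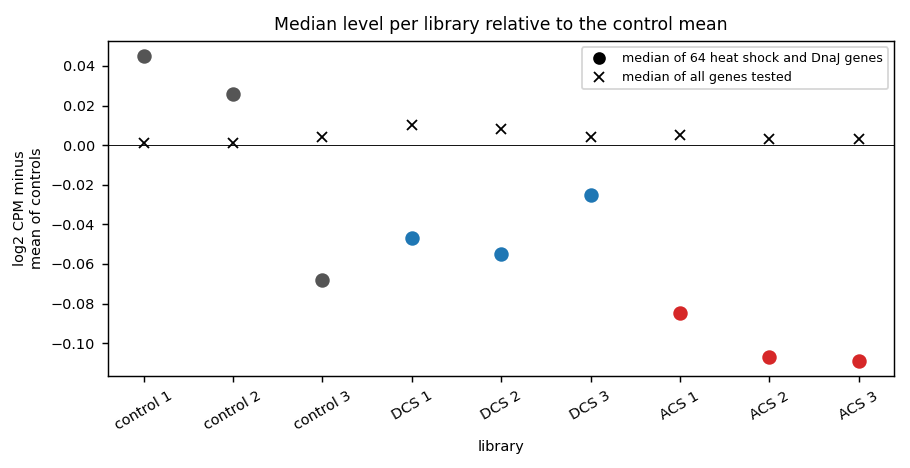
Median log2 CPM (counts scaled to a common depth) of the 64 heat shock and DnaJ genes in each library minus the mean of the 3 controls (coloured points) and the same median over all genes tested (crosses). The 3 ACS libraries sit lowest, from -0.109 to -0.085, control 3 sits at -0.068, and the medians of all genes stay within 0.01 of 0.

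The levels spanned more than 3 orders of magnitude. Hsp90ab1, the constitutive cytosolic Hsp90, was the most abundant member with a mean of 931 FPKM over the 9 libraries. Next came Hspa8, the constitutive cytosolic Hsp70 (486 FPKM), the stress-responsive Hsp90aa1 (258 FPKM) and Dnaja1, a DnaJ partner of cytosolic Hsp70 (238 FPKM). Hspa5, the ER form of Hsp70 known as BiP, had 194 FPKM, and Hsp90b1, the ER form of Hsp90, had 169 FPKM. The mitochondrial chaperonin Hspd1 and its lid Hspe1 had 127 and 158 FPKM. Between these neighbours, Hsp90aa1 and Dnaja1 overlapped in their range over the control libraries, as did Hspe1 and Hspd1.

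Hspa1b, the classical heat-inducible Hsp70, had a mean of 1.62 FPKM. Its near-identical copy Hspa1a was not analysed here, and reads of the copies can be split or misplaced in counting, so the level of Hspa1b is uncertain. The related Hspa1l had 0.80 FPKM. Among the Hspb genes, grouped by symbol as small heat shock proteins, Hspb6 led with 6.31 FPKM. Hspb11 had 3.67, Hspb8 2.66 and Hspb1 0.754 FPKM. In the Dnaja class Dnaja2 had 99.2 FPKM and the mitochondrial Dnaja3 23.9. The Dnajb class was led by Dnajb5 (49.0 FPKM), Dnajb6 (44.3) and the ER protein Dnajb11 (41.8), with Dnajb1, the main cytosolic partner of inducible Hsp70, at 35.6. The Dnajc class was led by Dnajc7 (89.9 FPKM), Dnajc5 (64) and Dnajc8 (58.6). The lowest members were Dnajb7 and Dnajb13 with 0.306 and 0.301 FPKM. Together the 64 members took 0.870%, 0.872% and 0.810% of the summed FPKM in control 1, 2 and 3, 0.822%, 0.848% and 0.844% in DCS, and 0.789%, 0.787% and 0.785% in ACS. All ACS libraries were lower in this share than all others.

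**Figure D2:**
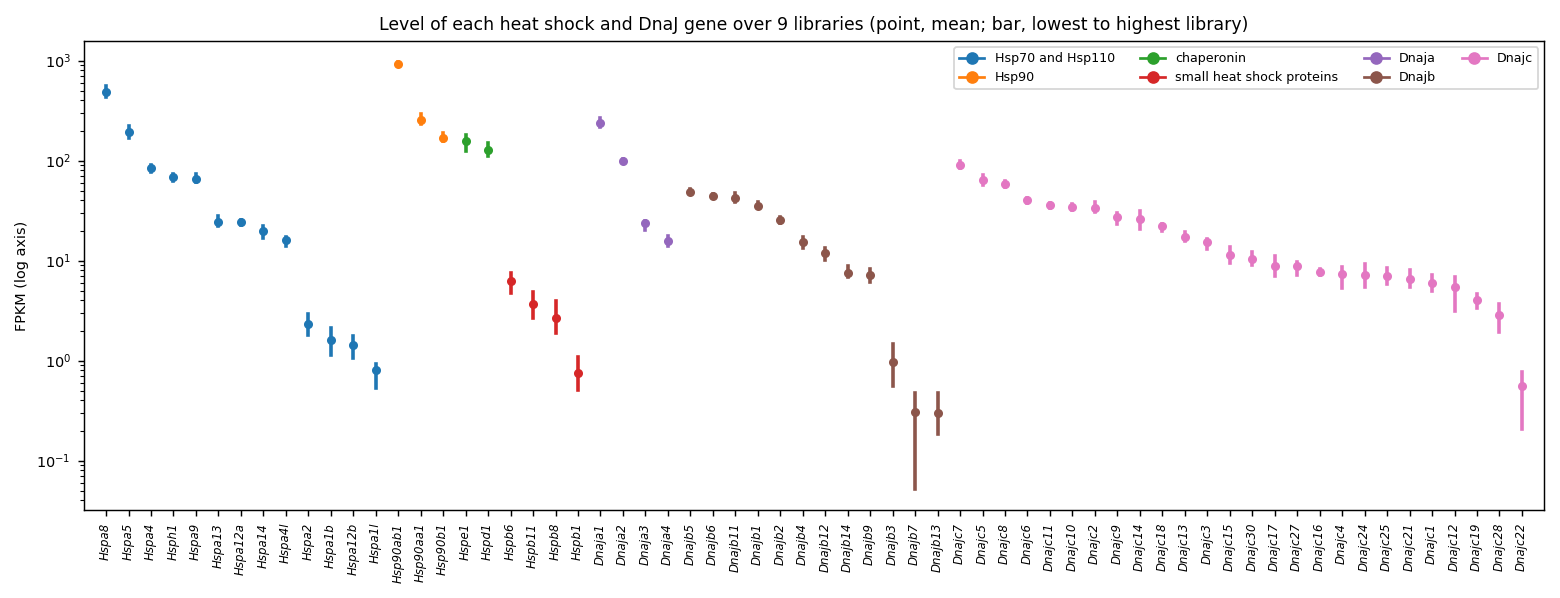
FPKM on a log axis for each of the 64 heat shock and DnaJ genes, coloured by family and ordered by mean within it, as the mean of 9 libraries (point) and the range over them (bar). Constitutive forms such as Hsp90ab1 and Hspa8 lie above 100 FPKM, while Hspa1b, Hspa1l and Hspb1 lie near 1 FPKM.

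Under ACS, edgeR called 2 members lower than in control, DESeq2 called 9 (707 of 16284 genes) and limma on log2(FPKM + 1) called 4 (279 of 13366 genes), and none of these tools called a member higher. The 2 were Hspa5, which fell by 18.2%, and Dnaja1, which fell by 13.0% (edgeR's quasi-likelihood test, Benjamini-Hochberg adjusted p = 0.021 and 0.0488). Over all genes tested with edgeR, 1.33% were called lower and 2.83% higher. At an unadjusted p under 0.05, 18 members (28.1%) were lower and 2 (3.12%) higher, against 10% and 10.8% of all genes. The 3 ACS libraries lay below the 3 controls for 15 members (13.0% of all genes) and above them for 2 (14.0% of all genes). The log2 fold change was below 0 for 48 of the 64 members with a median of -0.10, while 50.5% of all genes tested were below 0 with a median near 0. The ACS libraries lay below all 6 other libraries for 9 members (14.1%) and above them for 1, against 5.72% and 6.91% of all genes.

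The calls turned on single libraries, for these members as for all genes. Without control 3, 10 members were called lower, where 550 of 16572 genes were, and these were Hspd1, Hspa5, Dnaja1, Hsp90aa1, Dnajc7, Hspa4, Hsph1, Hsp90b1, Hspa8 and Dnajb11. Without control 1, control 2, ACS 1, ACS 2 or ACS 3 no member was called lower. Over all genes the calls fell too, from 217 with all libraries to 27, 22, 33, 27 and 85 in these fits. Without DCS 1 or DCS 2 the number of members was 1, where 111 and 102 genes were called lower. Without control 3 the median log2 fold change was -0.14, and 50 of the 64 members were below 0, as they were without control 2, and 46 were without control 1. The 23 members with at least 30 FPKM, where counting error is smallest, had 20 below 0 and 9 lower at an unadjusted p under 0.05 (39.1%), against 13.2% of the 3049 genes at that level. Of the 41 members under 30 FPKM, 28 were below 0 and 9 were lower at that p (22.0%), against 9.29% of genes.

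**Figure D3:**
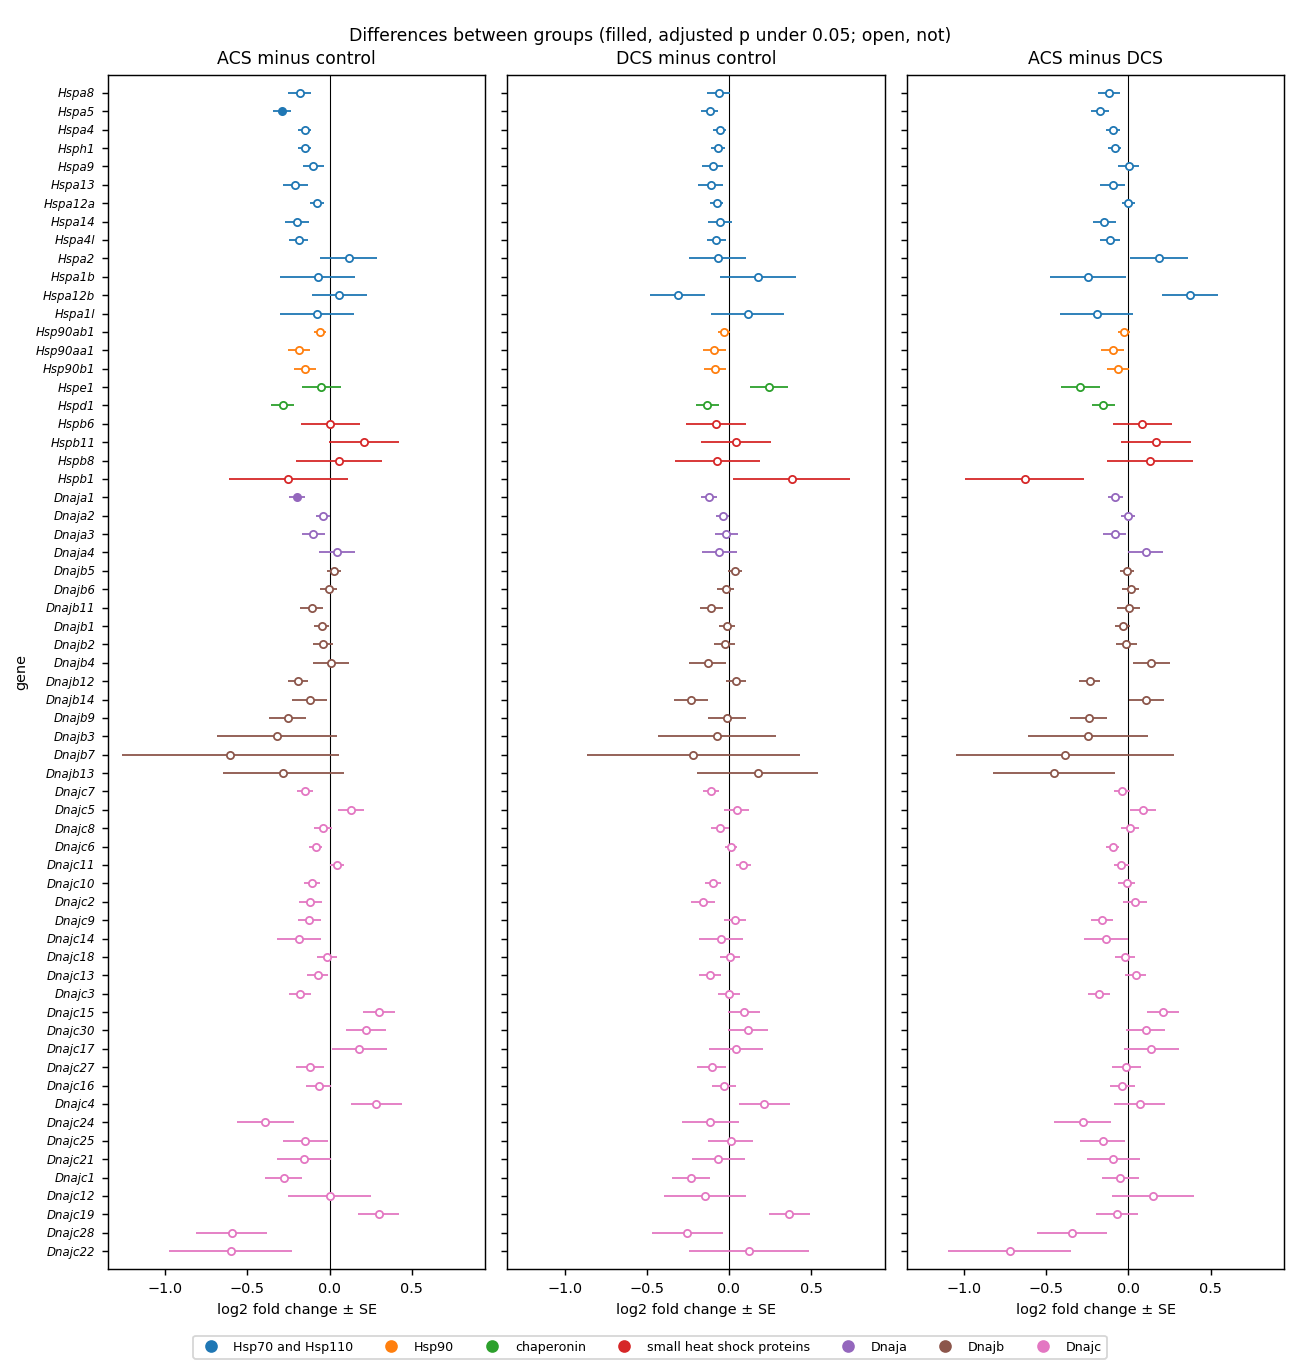
Log2 fold change ± SE (standard error) of each member in 3 panels, ACS minus control, DCS minus control and ACS minus DCS, coloured by family, with filled points for an adjusted p under 0.05. Hspa5 and Dnaja1 in the ACS panel are the filled points, and most open points of abundant members in that panel lie left of 0.

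Of the Hsp70 and Hsp110 genes, 11 of 13 were below 0 in ACS against control, with a median of -0.15, and 7 were lower at an unadjusted p under 0.05. Of all genes, 10% were lower at that p. Without control 1, 2 or 3 the number in the family was 4, 5 or 8, against 7.27%, 7.11% and 11.9% of all genes. Hspa5 (table position chr3:13838304-13842762, plus strand, build not named) had 589, 583 and 516 CPM in control 1, 2 and 3, 516, 537 and 502 CPM in DCS, and 471, 447 and 463 CPM in ACS. All ACS libraries were below all others. Its log2 fold change was -0.29 (SE 0.054, adjusted p = 0.021 by edgeR's quasi-likelihood test). The call was lost without control 1 (adjusted p = 0.0864), control 2 (0.0984), ACS 1 (0.0681), ACS 2 (0.0935) or ACS 3 (0.0571), and held without control 3 (0.00239).

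Hspa8 had 1040, 1110 and 938 CPM in control, 933, 1050 and 981 in DCS and 898, 963 and 867 in ACS. The groups overlapped, and its log2 fold change of -0.18 (SE 0.068) in ACS had an adjusted p of 0.165 (-0.25, adjusted p = 0.041 without control 3). Without control 1 or control 2 it was not called. Hspa4 and Hsph1, both Hsp110 proteins that serve Hsp70 as nucleotide exchange factors, showed smaller spreads. Hspa4 had 426, 422 and 392 CPM in control, 393, 404 and 394 in DCS and 370, 367 and 380 in ACS, with a log2 fold change of -0.15 (SE 0.040, adjusted p = 0.0669). Hsph1 had 264, 259 and 242 CPM in control, 242, 240 and 249 in DCS and 233, 227 and 230 in ACS, with a log2 fold change of -0.15 (SE 0.041, adjusted p = 0.0715). For both genes all ACS libraries were below all others, and neither passed the edgeR test with all libraries. Without control 3 both were called (adjusted p = 0.0111 and 0.013), as they were by DESeq2 (0.00925 and 0.0137). Of the 19 alternatives, 4 called Hspa4 and 2 called Hsph1, and the largest adjusted p-values were 0.218 and 0.229. The third Hsp110 gene, Hspa4l, had 88.3, 86.5 and 81.1 CPM in control, 81.1, 76.4 and 84.9 in DCS and 71.5, 73.5 and 79.5 in ACS. Its log2 fold change was -0.19 (SE 0.060, adjusted p = 0.109, and 0.0547 without control 3), and DESeq2 called it (0.0416). That was the 1 call of Hspa4l in the 19 alternatives, where its largest adjusted p was 0.296.

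Hspa9, the mitochondrial Hsp70, had 203, 215 and 183 CPM in control, 180, 182 and 199 in DCS and 194, 180 and 187 in ACS, with overlapping groups and a log2 fold change of -0.10 (SE 0.064, adjusted p = 0.418) in ACS. Hspa1b had 3.48, 3.26 and 5.30 CPM in control, 4.25, 4.83 and 4.53 in DCS and 3.84, 4.69 and 2.92 in ACS. Its log2 fold changes of 0.18 (SE 0.231) in DCS and -0.07 (SE 0.231) in ACS had edgeR adjusted p-values of 0.867 and 0.889. No difference was detected against the spread of its libraries. Without control 3, the highest control, the value in ACS turned to 0.18 (SE 0.214) and that in DCS was 0.43 (SE 0.215, adjusted p = 0.362). The members of this family above 0 in ACS were Hspa2 and Hspa12b, which had log2 fold changes of 0.12 (SE 0.174) and 0.06 (SE 0.168).

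All 3 Hsp90 genes were below 0 in ACS, and none passed the test with all libraries. Hsp90aa1 had 841, 825 and 684 CPM in control, 755, 726 and 728 in DCS and 694, 667 and 706 in ACS. Control 3 lay within the ACS range, and the log2 fold change of -0.19 (SE 0.069) had an adjusted p of 0.163. Hsp90ab1 had 2680, 2640 and 2530 CPM in control, 2570, 2620 and 2500 in DCS and 2580, 2470 and 2500 in ACS, a log2 fold change of -0.06 (SE 0.036, adjusted p = 0.408). Hsp90b1 had 629, 610 and 532 CPM in control, 592, 558 and 522 in DCS and 537, 522 and 539 in ACS, a log2 fold change of -0.15 (SE 0.066, adjusted p = 0.236). Control 3 lay within the ACS range for Hsp90b1 too, so over all 3 controls neither Hsp90aa1 nor Hsp90b1 was apart from ACS. Against controls 1 and 2 alone, the inducible and the ER forms showed the wider gap to the ACS libraries. Without control 3, Hsp90aa1 (-0.28, adjusted p = 0.00435) and Hsp90b1 (-0.22, adjusted p = 0.0327) were called lower in ACS, and DESeq2 called 1 of the 3 with all libraries. With all libraries, 2 of the 3 were lower at an unadjusted p under 0.05 by edgeR, against 10% of all genes. Without control 1, control 2 or ACS 2 the number of Hsp90 genes was 0, against 7.27%, 7.11% and 7.64% of all genes.

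Hspd1 and Hspe1 lie head to head on chromosome 9, with 1197 bases between the entries of the table, chr9:61680530-61690956 on the minus strand and chr9:61692154-61694599 on the plus strand. Hspd1 had 349, 337 and 281 CPM in control, 294, 299 and 289 in DCS and 270, 261 and 263 in ACS. All ACS libraries were below all others, and the log2 fold change of -0.28 (SE 0.070) had an adjusted p of 0.0535, just short of a call (0.00143 without control 3). Hspe1 had 48.1, 41.7 and 34.9 CPM in control, 49.6, 49.2 and 48.7 in DCS and 43.8, 42.3 and 34.5 in ACS. It was highest in the DCS libraries, with a log2 fold change of 0.24 (SE 0.117, adjusted p = 0.695, and 0.13 without control 3) from control to DCS and -0.29 (SE 0.117, adjusted p = 0.306) from DCS to ACS, and -0.05 (SE 0.117, adjusted p = 0.849, and -0.16 without control 3) from control to ACS.

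The partners therefore did not keep the same ratio, an observation made after their values were seen and given with no test. The FPKM of Hspd1 divided by that of Hspe1 was 0.869, 0.969 and 0.964 in control, 0.710, 0.729 and 0.711 in DCS and 0.740, 0.740 and 0.915 in ACS. All DCS libraries and 2 of the ACS libraries were below all controls. ACS 3 was within the control range.

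**Figure D4:**
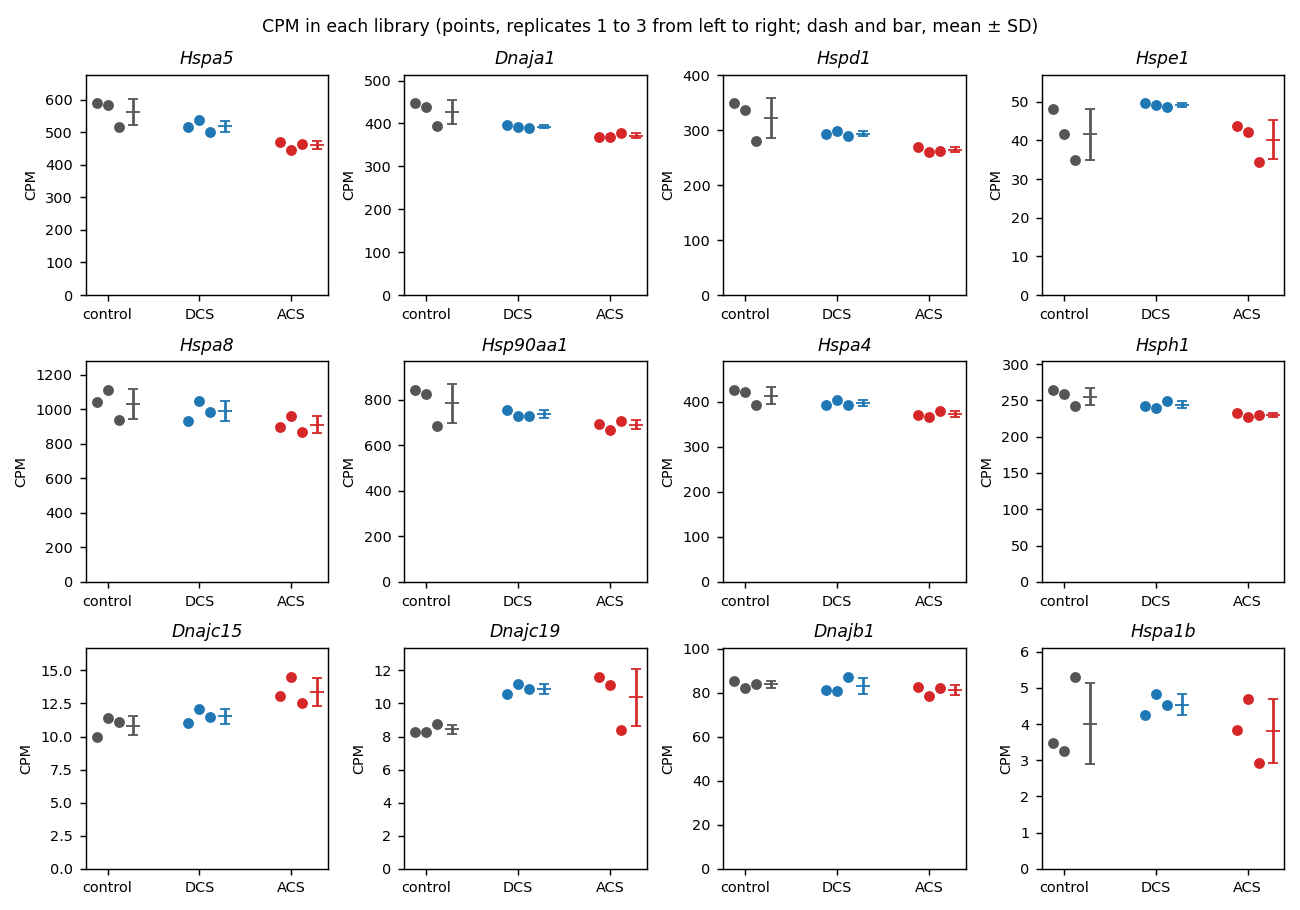
CPM of 12 members in each of the 9 libraries (points, replicates 1 to 3 from left to right) with mean ± SD of 3 libraries per group, on axes that start at 0. Hspa5, Dnaja1, Hspd1, Hspa4 and Hsph1 have all ACS libraries below the others, Hspe1 is highest in DCS, and Dnajc15 is highest in ACS.

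The small heat shock proteins were few and low. Of the 4 members, 1 was below 0 in ACS, and none had an unadjusted p under 0.05 in any comparison. Hspb1 had 0.935, 0.542 and 0.512 CPM in control, 0.862, 0.744 and 0.977 in DCS and 0.495, 0.696 and 0.474 in ACS. ACS and control overlapped, and the log2 fold change of -0.25 had an SE of 0.362 (adjusted p = 0.743). Hspb6 (log2 fold change 0.01, SE 0.181), Hspb8 (0.06, SE 0.260) and Hspb11 (0.21, SE 0.213) had groups that overlapped, as did the related alpha crystallin Cryab (-0.01, SE 0.234).

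In the Dnaja class 3 of 4 genes were below 0 in ACS. Dnaja1 (table position chr5:57028467-57039378, plus strand) had 447, 438 and 394 CPM in control, 396, 391 and 389 in DCS and 368, 368 and 378 in ACS. All ACS libraries were below all others, and control 3 was close to the DCS libraries. The log2 fold change in ACS was -0.20 (SE 0.048, adjusted p = 0.0488 by edgeR's quasi-likelihood test). This call was lost without control 1 (adjusted p = 0.165), control 2 (0.176), DCS 1 (0.0742), DCS 2 (0.078), ACS 1 (0.157), ACS 2 (0.152) or ACS 3 (0.0881), and without control 3 the adjusted p was 0.00326. Dnaja2, a cytosolic relative, had 198, 192 and 186 CPM in control, 185, 184 and 193 in DCS and 189, 180 and 191 in ACS. Its groups overlapped, with a log2 fold change of -0.04 (SE 0.042) in ACS.

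In the Dnajb class 10 of 12 genes were below 0 in ACS with a median of -0.12, which was -0.05 over the 9 of them with at least 1 FPKM, and -0.15 over all 12 without control 3. Of the 12, 2 (16.7%) were lower at an unadjusted p under 0.05, the ER proteins Dnajb12 and Dnajb9, against 10% of all genes. Dnajb12, which sits in the ER membrane, had 38.3, 36.8 and 39.7 CPM in control, 38.9, 39.0 and 40.2 in DCS and 31.9, 36.1 and 32.4 in ACS. All ACS libraries were below all others, with log2 fold changes of -0.19 against control (SE 0.063, adjusted p = 0.118) and -0.24 against DCS (SE 0.063, adjusted p = 0.129). Dnajb11, a cofactor of BiP, had 94.3, 91.2 and 77.7 CPM in control, 80.7, 81.9 and 81.6 in DCS and 82.1, 84.7 and 77.6 in ACS. Its log2 fold change of -0.11 (SE 0.070, adjusted p = 0.421) in ACS was -0.19 and called lower without control 3 (adjusted p = 0.0434). Without control 1 or control 2 Dnajb11 was not called. Dnajb1 had 85.4, 82.2 and 83.9 CPM in control, 81.4, 80.8 and 87.2 in DCS and 82.8, 78.5 and 82.0 in ACS, a log2 fold change of -0.05 (SE 0.046). Dnajb5 and Dnajb6 had log2 fold changes of 0.03 (SE 0.042) and -0.01 (SE 0.052) in ACS.

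The Dnajc class was the most mixed, with 18 of 26 genes below 0 in ACS, 5 lower and 2 higher at an unadjusted p under 0.05. Of all genes, 10% were lower and 10.8% higher at that p. Without control 1, 2 or 3 the number lower in the class was 2, 2 or 7, against 7.27%, 7.11% and 11.9% of all genes. Dnajc7, a cochaperone with TPR repeats that binds Hsp70 and Hsp90, had 234, 225 and 205 CPM in control, 208, 205 and 202 in DCS and 200, 198 and 201 in ACS. Its ACS libraries were below all others, with a log2 fold change of -0.15 (SE 0.048, adjusted p = 0.116), and it was called without control 3 (0.0104) and by DESeq2 (0.0402). Those were the 2 calls of Dnajc7 in the 19 alternatives, where its largest adjusted p was 0.321. The 2 higher ones encode mitochondrial proteins. Dnajc15, a DnaJ protein of the inner mitochondrial membrane, had 10, 11.4 and 11.1 CPM in control, 11.0, 12.1 and 11.5 in DCS and 13.1, 14.5 and 12.5 in ACS. It was the member whose ACS libraries lay above all others, with a log2 fold change of 0.30 (SE 0.098, adjusted p = 0.117). Dnajc19, its relative at the import motor, had 8.25, 8.30 and 8.76 CPM in control, 10.6, 11.2 and 10.9 in DCS and 11.6, 11.1 and 8.42 in ACS. All DCS libraries were above all controls, ACS 3 was at the control level, and the log2 fold change was 0.37 (SE 0.127, adjusted p = 0.692) in DCS and 0.30 (SE 0.127, adjusted p = 0.216) in ACS.

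The remaining members lower in ACS at an unadjusted p under 0.05 were mostly of low level. Dnajc28 had 5.24, 4.93 and 5.06 CPM in control, 2.85, 5.34 and 4.57 in DCS and 3.49, 3.09 and 3.49 in ACS. Its ACS libraries were below all controls but not below DCS 1, with a log2 fold change of -0.60 (SE 0.215, adjusted p = 0.151). Dnajc24, which serves the diphthamide modification of an elongation factor, and the ER protein Dnajc1 had log2 fold changes of -0.39 (SE 0.174) and -0.28 (SE 0.114), with groups that overlapped. In the Hsp70 family these were Hspa13 (-0.21, SE 0.077, adjusted p = 0.157) and the ribosome-associated Hspa14 (-0.20, SE 0.072, adjusted p = 0.152), each with all ACS libraries below all controls. Over the 64 members the log2 fold changes ran from -0.60 to 0.30 in ACS against control, from -0.31 to 0.38 in DCS against control and from -0.72 to 0.37 in ACS against DCS. The ends of these ranges below 0 in ACS belong to Dnajb7, Dnajc22 and Dnajc28, which had at most 2.89 FPKM.

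Among the Dnajc genes of the synaptic vesicle cycle, Dnajc5 had 70.8, 72.0 and 63.4 CPM in control, 74.9, 72.9 and 65.2 in DCS and 82.5, 70.7 and 73.0 in ACS, with overlapping groups and a log2 fold change of 0.13 (SE 0.079, adjusted p = 0.37) in ACS. Dnajc6 had 219, 225 and 223 CPM in control, 228, 217 and 227 in DCS and 208, 204 and 216 in ACS. All its ACS libraries were below all others, with log2 fold changes of -0.09 against control (SE 0.039, adjusted p = 0.246) and -0.10 against DCS (SE 0.039, adjusted p = 0.303). Dnajc8, a splicing-associated member, had a log2 fold change of -0.04 (SE 0.055) in ACS.

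Under DCS no member was called in either direction by edgeR, DESeq2 or limma, where edgeR called 1 gene of all 16284 higher (0.00614%) and 1 lower (0.00614%). At an unadjusted p under 0.05, 1 member was higher, Dnajc19, and 2 were lower, Dnaja1 and Dnajc7, against 4.03% and 3.05% of all genes. The DCS libraries lay above all controls for 4 members, Hspe1, Dnajc11, Dnajc19 and Dnajb5, against 5.59% of all genes, and below them for 4, Dnajb14, Dnajc27, Hspa12a and Hspa12b, against 5.51%. Of the 64 members, 44 were below 0, with a median log2 fold change of -0.06 (-0.09 without control 3 and -0.03 without control 1). Without control 3, 14 members were lower at an unadjusted p under 0.05 (7.59% of all genes), and without control 1 or control 2 none was (1.42% and 1.45% of all genes).

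The 3 members of smallest p under ACS are given for DCS side by side, in comparisons that share the control libraries. Hspa5 had a log2 fold change of -0.12 (SE 0.054, adjusted p = 0.695), Dnaja1 of -0.12 (SE 0.048, adjusted p = 0.692) and Hspd1 of -0.13 (SE 0.070, adjusted p = 0.703) from control to DCS. Dnajb14, an ER membrane protein, had 16.1, 16.4 and 15.8 CPM in control and 13.5, 14.0 and 13.6 in DCS, so that all DCS libraries were below all controls. In ACS it had 13.6, 13.4 and 17.3 CPM. Its log2 fold change in DCS was -0.23 (SE 0.105, adjusted p = 0.695).

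Between ACS and DCS no member was called by edgeR or limma and DESeq2 called 2 lower, Dnajb12 and Hspa5, as it did 244 of 16284 genes. With edgeR, 0.51% of all genes were called higher in ACS and 0.123% lower. At an unadjusted p under 0.05, none was higher and 7 were lower (10.9%), against 7.22% and 6.66% of all genes. These were Dnajb12, Hspa5, Dnajc3, Dnajc6, Hspe1, Dnajc9 and Hspa4. The ACS libraries lay below all DCS libraries for 13 members (20.3%; 10.2% of all genes) and above them for 2, Dnajc15 and Hspa12b (11.2% of all genes). Hspa5 had a log2 fold change of -0.17 (SE 0.054, adjusted p = 0.191). Dnajc3, an ER protein that also inhibits kinases of the integrated stress response, had 29.8, 30.0 and 26.5 CPM in control, 28.3, 29.3 and 28.6 in DCS and 24.1, 26.1 and 25.9 in ACS. Its ACS libraries were below all others, with a log2 fold change of -0.18 from DCS to ACS (SE 0.068, adjusted p = 0.286). This comparison does not use the controls for its means. Across the members 44 of 64 were below 0, with a median of -0.05.

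By compartment, the members annotated in the table to the ER lumen were Hspa5, Hsp90b1, Dnajb9, Dnajb11, Dnajc3 and Dnajc10. All 6 were below 0 in ACS against control, from -0.29 to -0.11, with a median of -0.16. At an unadjusted p under 0.05, 4 of them (66.7%) were lower. The 64 tested genes with this annotation include these 6 members. These 64 had a median of -0.05 with 41 below 0, and 12 (18.8%) were lower at that p. Dnajb9, a cofactor of BiP, had 19.5, 19.3 and 16.1 CPM in control, 15.4, 19.3 and 19.6 in DCS and 15.1, 14.8 and 16.1 in ACS, with control 3 level with ACS 3. Of 13 members annotated to the mitochondrion, 10 were below 0, with a median of -0.10. The 1224 tested genes with that term had a median of -0.02, and 55% of them were below 0. As annotated here, the term also covers the ER protein Hspa5, which is thus counted in both compartments, and cytosolic members such as Hsp90aa1. Both members called under ACS, Hspa5 and Dnaja1, carry the term, and the mitochondrial Hspe1 does not.

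Other genes of the chaperone network were read from lists chosen with earlier results of these data known. The cytosolic chaperonin TRiC and prefoldin, which fold actin and tubulin, had 13 of 14 genes below 0 in ACS against control (median -0.13). Of these, 1 was called lower, Cct4, with 301 ± 8.03 CPM in control, 288 ± 4.96 in DCS and 269 ± 5.69 in ACS (SD, n = 3; log2 fold change -0.16, edgeR adjusted p = 0.0427), and 8 had an unadjusted p under 0.05. Over all genes tested, 1.33% were called lower and 10% were lower at that unadjusted p. The Cct4 call was lost when any library but control 3 or DCS 3 was left out, with adjusted p-values up to 0.167. Without control 3, 6 of the 14 were called lower (550 of 16572 genes), and DESeq2 called 5 with all libraries (707 of 16284 genes). Tcp1 (-0.15, adjusted p = 0.10) and Pfdn1 (-0.22, adjusted p = 0.105) came next.

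Of 31 cochaperones of Hsp70 and Hsp90, 2 were called higher and 1 lower in ACS, against 2.83% and 1.33% of all genes. In this list 21 were below 0 with a median of -0.05. Chordc1, a zinc-binding cochaperone of Hsp90, had 54.2 ± 2.75 CPM in control, 45.5 ± 4.65 in DCS and 38.9 ± 3.41 in ACS (SD, n = 3; log2 fold change -0.48, edgeR adjusted p = 0.0186). Bag6, which guards proteins with exposed membrane segments, had 341 ± 15.6, 354 ± 3.73 and 389 ± 5.50 CPM (0.19, adjusted p = 0.0339 by edgeR, n = 3). Ahsa2, a relative of the Hsp90 ATPase activator Ahsa1, had 60.1 ± 1.59, 64.6 ± 2.37 and 70.8 ± 3.45 CPM (0.24, adjusted p = 0.0384 by edgeR, n = 3). The 3 calls were lost without control 1 or control 2, with adjusted p-values from 0.0837 to 0.144, and also without ACS 1 or ACS 2. Those of Bag6 and Ahsa2 were further lost without DCS 1, DCS 2 or ACS 3. Without control 3, 5 cochaperones were called lower and 4 higher, where 550 and 881 of 16572 genes were. With all libraries DESeq2 called 3 lower and 3 higher, where it called 707 and 945 of 16284 genes.

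Of 21 genes of ER stress and the integrated stress response, 1 was called lower in ACS and none higher, against 1.33% and 2.83% of all genes. In this list 13 were below 0, with a median of -0.03. Pdia4, a protein disulfide isomerase of the ER lumen, had 123 ± 2.98 CPM in control, 118 ± 4.55 in DCS and 96.8 ± 4.14 in ACS (SD, n = 3). Its log2 fold change was -0.34 against control (edgeR adjusted p = 0.00608) and -0.29 against DCS (edgeR adjusted p = 0.0357), and the call against control held without each library in turn while that against DCS held only without control 3. Without control 3, 2 of the 21 genes were called lower (550 of 16572 genes). The stress factor Atf3 (0.61, adjusted p = 0.128) and the ER stress sensor Ern1 (0.21, adjusted p = 0.139) had higher values that did not pass. None of 5 heat shock factors and regulators was called by edgeR or DESeq2 with all libraries. In ACS 1 was higher at an unadjusted p under 0.05, against 10.8% of all genes. Hsf1, the main heat shock factor, had 21.5 ± 2.24 CPM in control, 23.7 ± 1.45 in DCS and 25.3 ± 0.0589 in ACS, with a log2 fold change of 0.24 (SE 0.085, edgeR adjusted p = 0.151, n = 3). Without control 3 it was called higher (0.32, edgeR adjusted p = 0.0405), and with any other library left out it was not called. Of the list for mitochondrial import and proteases, 12 of 13 genes were matched and tested, none was called, and 6 were below 0 (4 without control 3). In DCS against control no gene of any of these lists was called by edgeR with all libraries. Without control 3, edgeR called 15 of 16572 genes lower. Among them were the calnexin gene Canx and the Hsp90 cochaperone Ptges3 (-0.20 and -0.29, edgeR adjusted p = 0.0475 and 0.0478).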

How the data were processed

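RNA of 9 libraries of rat cortical neurons was analysed, grouped by their labels, with all columns of values mapped to a library. The authors trimmed reads (fastp in the paper, cutadapt 1.9 in the labels), aligned them with HISAT2 (2.0.4 in the labels) and quantified genes with StringTie (1.3.4d in the labels). UMI-tools is also named, without its role, and the strand setting of the counting is not given in the sources used here. The deposited table gives FPKM, with zeros written as 0.0001, and an estimated count that is a whole number. The table names no build. The paper writes Rattus norvegicus GRCh38. Low counts pile up at multiples of 4 (34.1% of counts from 1 to 15 are 4, 8 or 12, against 20% if even), so a fragment may add about 4.

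Counts were scaled by TMM and kept by filterByExpr (minimum count 10, minimum total 15), which removed 16339 entries. A quasi-likelihood F test of edgeR 4.0.16 was fitted to all 9 libraries with 6 residual degrees of freedom and a common biological coefficient of variation of 0.218, and p-values were corrected after Benjamini and Hochberg within each comparison, over 16284 genes. A call is an adjusted p under 0.05. CPM were computed from the scaled totals. The SE comes from the log2 fold change and its F statistic. The scripts were tested on simulated data. Levels of different genes were compared in FPKM, changes of a gene in CPM or log2 fold change.

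The members, the lists and the alternatives were chosen with earlier results of these data known. Genes are named by rule: members called, founding members, the 3 of highest FPKM per family, the 5 uncalled members of smallest p per comparison, and up to 3 genes per list by smallest p. Any other member was named after its values were seen, to spell out a count, a range or an annotation. Alternatives were DESeq2 1.42.0, limma 3.58.1 on log2(FPKM + 1) or log2(FPKM + 0.1), other filters and scaling, counts divided by 4, the 6 libraries of a comparison, a replicate block, and leaving out each library. Those for families and for genes of the lists, and the values of single members without control 3 beyond those above, were added after seeing the data.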

Additional observations from a re-analysis of the deposited data

How the results depend on the processing

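The log2 fold changes followed through the 19 alternatives were those of the called members, the 5 uncalled of smallest p per comparison and the called genes of the lists. None changed direction. These genes were picked by small p in the same data, so a stable direction was likely beforehand and does not speak for the other members. Hspa1b, which was not followed, went from -0.07 to 0.18 in ACS without control 3. The number of members called lower in ACS than in control (2) was 1 with no low-count filter, 9 with DESeq2, 4 with limma on log2(FPKM + 1) or on log2(FPKM + 0.1), 1 with limma and no filter, 1 with the 6 libraries alone, 1 with the replicate block, and 0 to 10 when a library was left out. It was 10 without control 3. Over all genes tested, the number called lower was 217 in the main fit and 22 to 550 when a library was left out. No member was called higher in any comparison under any alternative, and none was called lower in DCS. The number called lower in ACS than in DCS (0, with 7 at an unadjusted p under 0.05) was 2 with DESeq2 and 0 to 0 when a library was left out. Hspa5 stayed called in 14 of the 19 alternatives and Dnaja1 in 8, and Hspd1 was called in 6, with adjusted p-values from 1.3e-05 to 0.0984, 0.00214 to 0.176 and 0.00114 to 0.183.

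At an unadjusted p under 0.05, the members higher in ACS than in control (2) were 1 with no low-count filter, with limma in its 3 forms and with the replicate block, and 0 to 2 when a library was left out, and those lower (18) were 9 to 23. Of all genes, 10% were lower at that p in the main fit and 7.11% to 11.9% when a library was left out. In DCS against control, those higher (1) were 2 with DESeq2, with limma in its 3 forms and with the replicate block, and 1 to 2 when a library was left out. Those lower (2) were 5 with DESeq2, 1 with limma on log2(FPKM + 1) or log2(FPKM + 0.1), 1 with the 6 libraries alone and 0 to 14 when a library was left out. In ACS against DCS, those higher (0) were 1 with limma in its 3 forms and 0 to 2 when a library was left out, and those lower (7) were 11 with limma and no filter and 4 to 12 when a library was left out. The median log2 fold change of the members ranged, with a library left out, from -0.144 to -0.080 for ACS against control, -0.094 to -0.026 for DCS against control and -0.067 to -0.044 for ACS against DCS, where limma gave -0.060 with a pseudocount of 0.1 and -0.064 with no filter. The cause of these shifts was not tested.

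Libraries with the same number correlated in their deviations from the group means by -0.053 to 0.063, and those with different numbers by -0.061 to 0.042. By this measure no pairing by number was seen. The correlation is taken over all genes tested, so it cannot show whether a smaller set of genes is paired. With the replicate block the adjusted p of Hspa5 was 0.0321 and that of Dnaja1 0.070. With 3 libraries per group and log2 differences of 0.1 to 0.3, single members often stayed short of the threshold. Members under 1 FPKM had SEs from 0.224 to 0.66 and bear on no direction.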
